A study of Mus musculus with 20 samples.

Results

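The collagen genes of the mouse cecum were taken as the protein-coding rows of the count table whose GENCODE mouse symbol is Col, a number, a, and a number, such as Col1a1. Of the 19887 genes in the table, 43 met this rule, and a further gene of that name pattern, Col2a1, was not analysed here. After the filter on low counts 39 of the 43 were tested among 15348 genes. The study asked how raw potato starch (RPS), a source of resistant starch that reaches the cecum undigested, alters the cecum of mice eating the Total Western Diet (TWD), a rodent diet modelled on American intakes. RNASeq was done on cecum tissue of 20 C57BL/6 mice in 4 groups of 5, whose TWD held 0, 2, 5, or 10% RPS by weight. All mice were first kept on the TWD without RPS for 6 weeks from about 3 weeks of age. The assigned diet followed for 3 weeks, so the 0% RPS mice stayed on the TWD throughout. The labels name no genetic alteration in any group. Sections of whole cecum wall were used, in which epithelium, muscle, vessels, and connective tissue are mixed, and the sources used here do not give any shared cage or litter. The study names male mice for its 16S sequencing of cecal contents, and the labels give no sex for the RNA samples.

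Collagens are triple helices of 3 chains, and the chain names give the type and the chain (Col1a1 and Col1a2 encode the chains of type I). Fibrillar collagens form the fibrils of the submucosa and of the connective tissue between muscle layers, type IV forms the sheet of every basement membrane, type VI forms beaded filaments beside it, and the fibril-associated collagens with interrupted triple helices (FACIT) bind to the surface of fibrils. In the gut wall fibroblasts and smooth muscle cells make most of the fibrillar collagen, and endothelium, muscle, and epithelium all add to the basement membrane.

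Total counts per mouse ran from 14967798 to 42687283. The 43 genes together took 0.110 ± 0.0161% of all counts with 0% RPS (SD, n = 5), 0.130 ± 0.0245% with 2%, 0.160 ± 0.0299% with 5%, and 0.145 ± 0.0204% with 10% RPS. The lowest and highest mouse stood at 0.0948 to 0.128% with 0% RPS and at 0.116 to 0.166% with 10% RPS, so these ranges overlapped. Levels are given below as CPM (counts of a gene per 1000000 counts of the library, scaled by TMM), with the mice of a diet in the order 1 to 5. Epithelial markers were looked up, which cannot tell cecum from the proximal or distal colon that the study also took. The large-bowel carbonic anhydrase Car1 had a mean of 25146 CPM with 0% RPS, and E-cadherin (Cdh1) 1042 CPM.

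Per kilobase of the canonical transcript, Col3a1 had the highest level of the 43 genes, with a mean over 20 mice of 44.1 CPM per kb. It was followed by Col1a2 (28.1), Col6a1 (26.8), Col4a1 (24.5), Col4a2 (19.0), Col6a2 (14.7), and Col1a1 (14.55). Types I, III, IV, and VI thus held the 7 highest places on this scale. The next place, that of Col6a3, was at 5.93 CPM per kb. At the other end Col10a1 of hypertrophic cartilage had 2 counts in all 20 mice, Col9a1 of cartilage had 49, Col6a6 had 112, and Col26a1 had 120. These 4 genes were the ones removed by the filter on low counts.

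The main comparison was 10% with 0% RPS. A gene was taken as past the threshold at an adjusted p of at most 0.05 and a fold change of at least 1.5 in edgeR's quasi-likelihood test. Of the 39 tested collagen genes 2 were past it, Col12a1 and Col5a2, and both were higher with 10% RPS, which is 5.13% of the members against 0.547% of all 15348 genes tested in that direction. An unadjusted p under 0.05 with a higher level was seen for 10 of the 39 genes (25.6%, against 9.74% of all genes tested), and with a lower level for 0 of the 39 (against 9.75%). Those 10 genes were Col1a1, Col1a2, Col3a1, Col5a1, Col5a2, Col6a3, Col8a1, Col8a2, Col12a1, and Col16a1. In 1 gene, Col12a1, every mouse fed 10% RPS lay above every mouse fed 0% RPS, a pattern that 1.68% of all genes tested had. The median log2 fold change of the 39 genes was 0.17, and that of all genes tested was 0.0041. The median of the 39 genes was 0.17 with 2% RPS too, and 0.31 with 5%. In bulk tissue more or fewer cells of a type cannot be told apart from more or less RNA per cell, which holds for each comparison given here.

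With 5% RPS 1 of the 39 genes was past the threshold against 0% RPS, again Col12a1, where 0.0977% of all genes tested were past it in that direction. The unadjusted p was under 0.05 with a higher level for 17 of the 39 genes (43.6%, against 6.74% of all genes tested). In 3 genes, Col1a1, Col5a2, and Col12a1, all mice fed 5% RPS lay above all mice fed 0% RPS, where 1.53% of all genes tested did. With 2% RPS edgeR placed 0 of the 39 genes past the threshold (0.0% of all genes tested were past it), DESeq2's Wald test also placed 0, and 1 gene, Col5a2, had an unadjusted p under 0.05 (2.56%, against 2.58% of all genes tested). In 0 of the 39 genes were the 2% RPS mice all above the 0% RPS mice (0.417% of all genes tested). All of these comparisons, and the linear trend over the percentage of RPS, share the same 5 mice fed 0% RPS, so that they are not independent of each other.

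**Figure D1:**
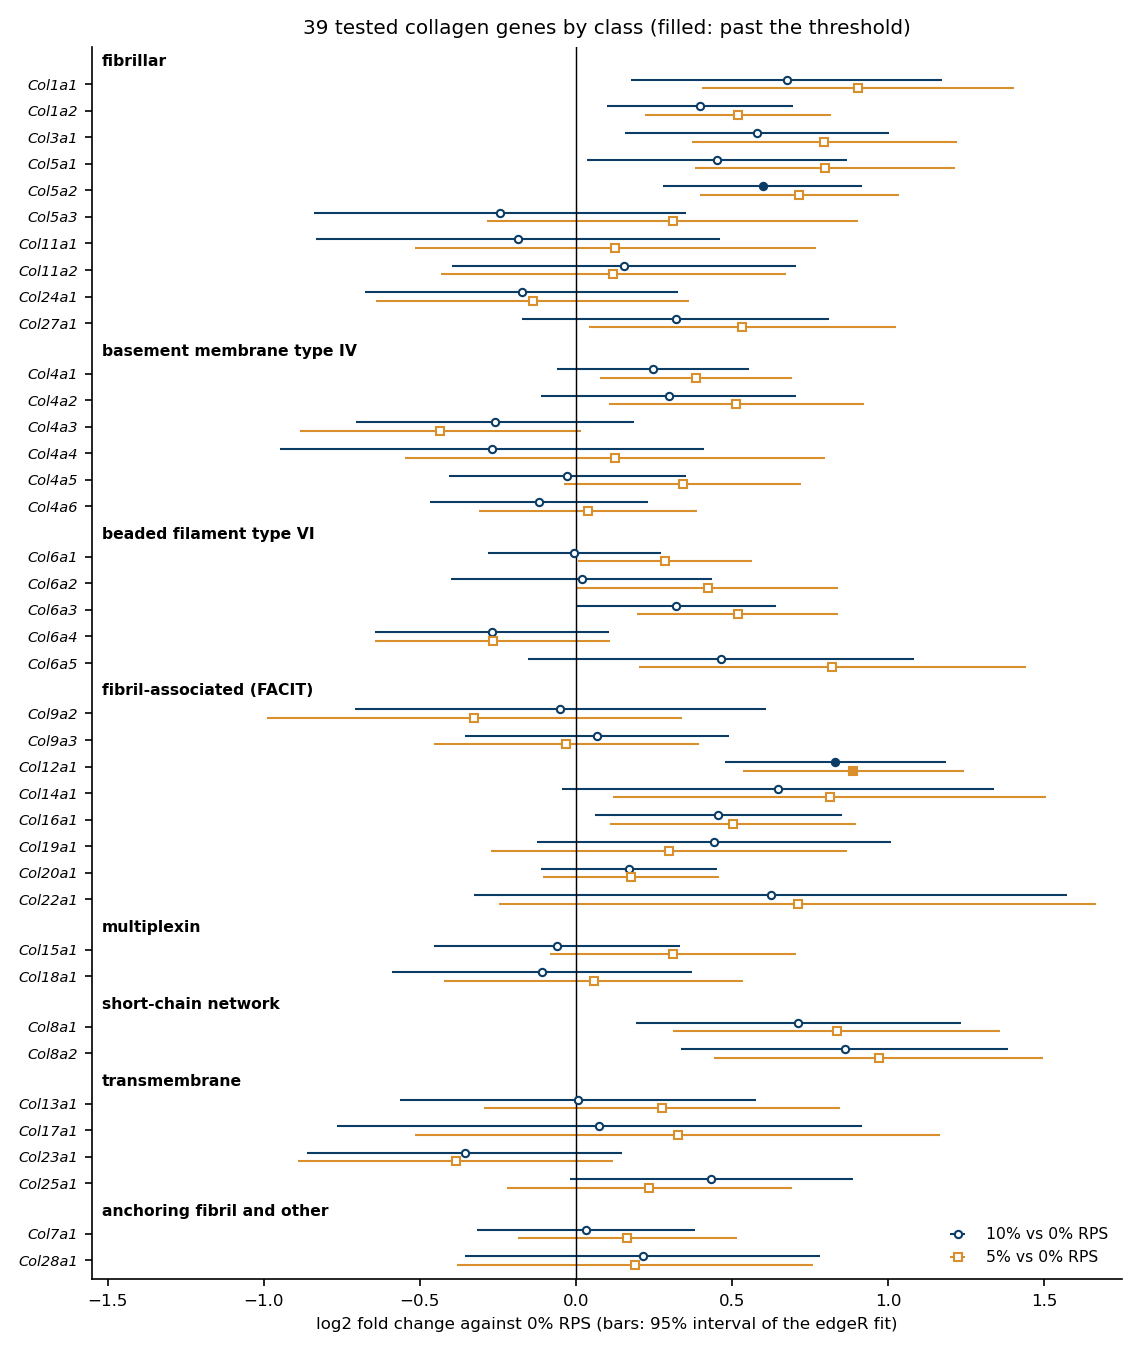
Log2 fold change (horizontal axis) of the 39 tested collagen genes, grouped by class, for 10% vs 0% RPS (circles) and 5% vs 0% RPS (squares), with 95% intervals of the edgeR fit; filled symbols are past the threshold. Col12a1 is filled in both comparisons and Col5a2 with 10% RPS, and the fibrillar genes Col1a1 to Col5a2 lie right of 0 while the type IV and multiplexin genes lie around it with 10% RPS. Col8a2 lies farthest right in both comparisons.

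Among the fibrillar collagens, 5 of the 10 tested genes had an unadjusted p under 0.05 with 10% RPS, all with higher levels, and 1 of them passed the threshold, where 9.74% and 0.547% of all genes tested did in that direction. The median log2 fold change of the class was 0.36. Col5a2 (ENSMUSG00000026042; GRCm39 chromosome 1, 45412554 to 45542442, minus strand), a chain of the type V collagen that regulates the diameter of type I fibrils, rose. Its level was 29.4, 27.6, 27.7, 23.4 and 24.3 CPM in the mice fed 0% RPS, 27.1, 31.7, 38.9, 28.3 and 41.7 with 2%, 34.2, 37.3, 43.2, 50.2 and 52.9 with 5%, and 42.7, 50.1, 44.4, 28.4 and 34.7 CPM with 10% RPS. With 10% RPS mouse 4 was within the range of the control mice and the other 4 were above all of them. The log2 fold change was 0.60 ± 0.15 (SE, n = 5 per diet; 95% interval 0.28 to 0.92; adjusted p = 0.0487), a 1.51-fold difference. With 5% RPS the log2 fold change was 0.72 ± 0.15 and all 5 mice were above all controls, with an adjusted p of 0.051. This 5% RPS difference passed the threshold in DESeq2's Wald test (adjusted p = 0.00280), with at least 10 counts in every mouse (0.0468), in the non-robust fit (0.0497), in the fit of only those 2 diets (0.0354), and in 6 of the 20 fits without 1 mouse, those without mouse 3, 4, or 5 of the 2% diet, mouse 1 of the 5% diet, or mouse 2 or 4 of the 10% diet (0.0292 to 0.0486). The call with 10% RPS was made in 8 of the 20 fits that left out 1 mouse. It was lost without mouse 1, 3, 4, or 5 of the 0% diet, mouse 1 or 2 of the 2% diet, mouse 2 or 3 of the 5% diet, and mouse 1, 2, 3, or 5 of the 10% diet (adjusted p from 0.0522 to 0.144). It was also not made with DESeq2's size factors (adjusted p = 0.0508), without the filter on low counts (0.0541), or in the fit of only those 2 diets (0.0609), while DESeq2's Wald test gave the lowest adjusted p of all alternatives, 0.0112. By edgeR's glmTreat, which tests against a fold change of 1.5, the 10% RPS call was not made either.

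Col1a1 and Col1a2 encode the chains of type I, the main collagen of most connective tissue. Col1a1 measured 69.2, 67.7, 42.9, 57.7 and 59.7 CPM with 0% RPS and 98.3, 127, 113, 61.9 and 74.0 CPM with 10% RPS. Only mouse 4 of the 10% RPS diet lay inside the control range. Its log2 fold change was 0.68 ± 0.24 (unadjusted p = 0.0105, adjusted p = 0.133), and with 5% RPS it was 0.90 ± 0.24, from levels of 75.7, 80.8, 111, 166 and 122 CPM that were all above the controls (adjusted p = 0.0912). Col1a2 was at 134, 157, 109, 114 and 100.7 CPM in the controls and at 167, 184, 182, 129.8 and 146 CPM with 10% RPS, where 3 of the 5 mice were above all controls. The difference in Col1a2 was 0.40 ± 0.14 on the log2 scale with 10% RPS (adjusted p = 0.138) and 0.52 ± 0.14 with 5% RPS (adjusted p = 0.0935).

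Col3a1, the single chain of type III collagen, the fine-fibril collagen of the gut wall and of vessels, was at 234, 207, 137, 175 and 129.8 CPM with 0% RPS. The mice fed 10% RPS measured 282, 346, 297, 178 and 217 CPM, and those fed 5% RPS 223, 251, 299, 385 and 374 CPM. The groups overlapped at both doses, with 3 of 5 mice above all controls with 10% RPS and 4 of 5 with 5%. The log2 fold change of Col3a1 was 0.58 ± 0.20 with 10% RPS (adjusted p = 0.129) and 0.80 ± 0.20 with 5% RPS (adjusted p = 0.0839). Col5a1, the partner chain of Col5a2, was at 35.8, 30.1, 22.1, 27.5 and 32.2 CPM in the controls and at 42.8, 50.1, 45.1, 29.3 and 34.7 CPM with 10% RPS, a log2 fold change of 0.45 ± 0.20 (adjusted p = 0.223). With 5% RPS it was 0.80 ± 0.20 (adjusted p = 0.0789). None of Col1a1, Col1a2, Col3a1, and Col5a1 passed the threshold at any dose in the edgeR fit of all 20 mice. Without mouse 1 of the 5% diet, the lowest of its group in Col1a1 and Col3a1, the 5% RPS differences of Col3a1 and Col5a1 passed it (adjusted p = 0.0481 for both). DESeq2's Wald test placed Col1a1, Col3a1, and Col5a1 past it with 5% RPS, with adjusted p of 0.0134, 0.0114, and 0.0114.

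**Figure D2:**
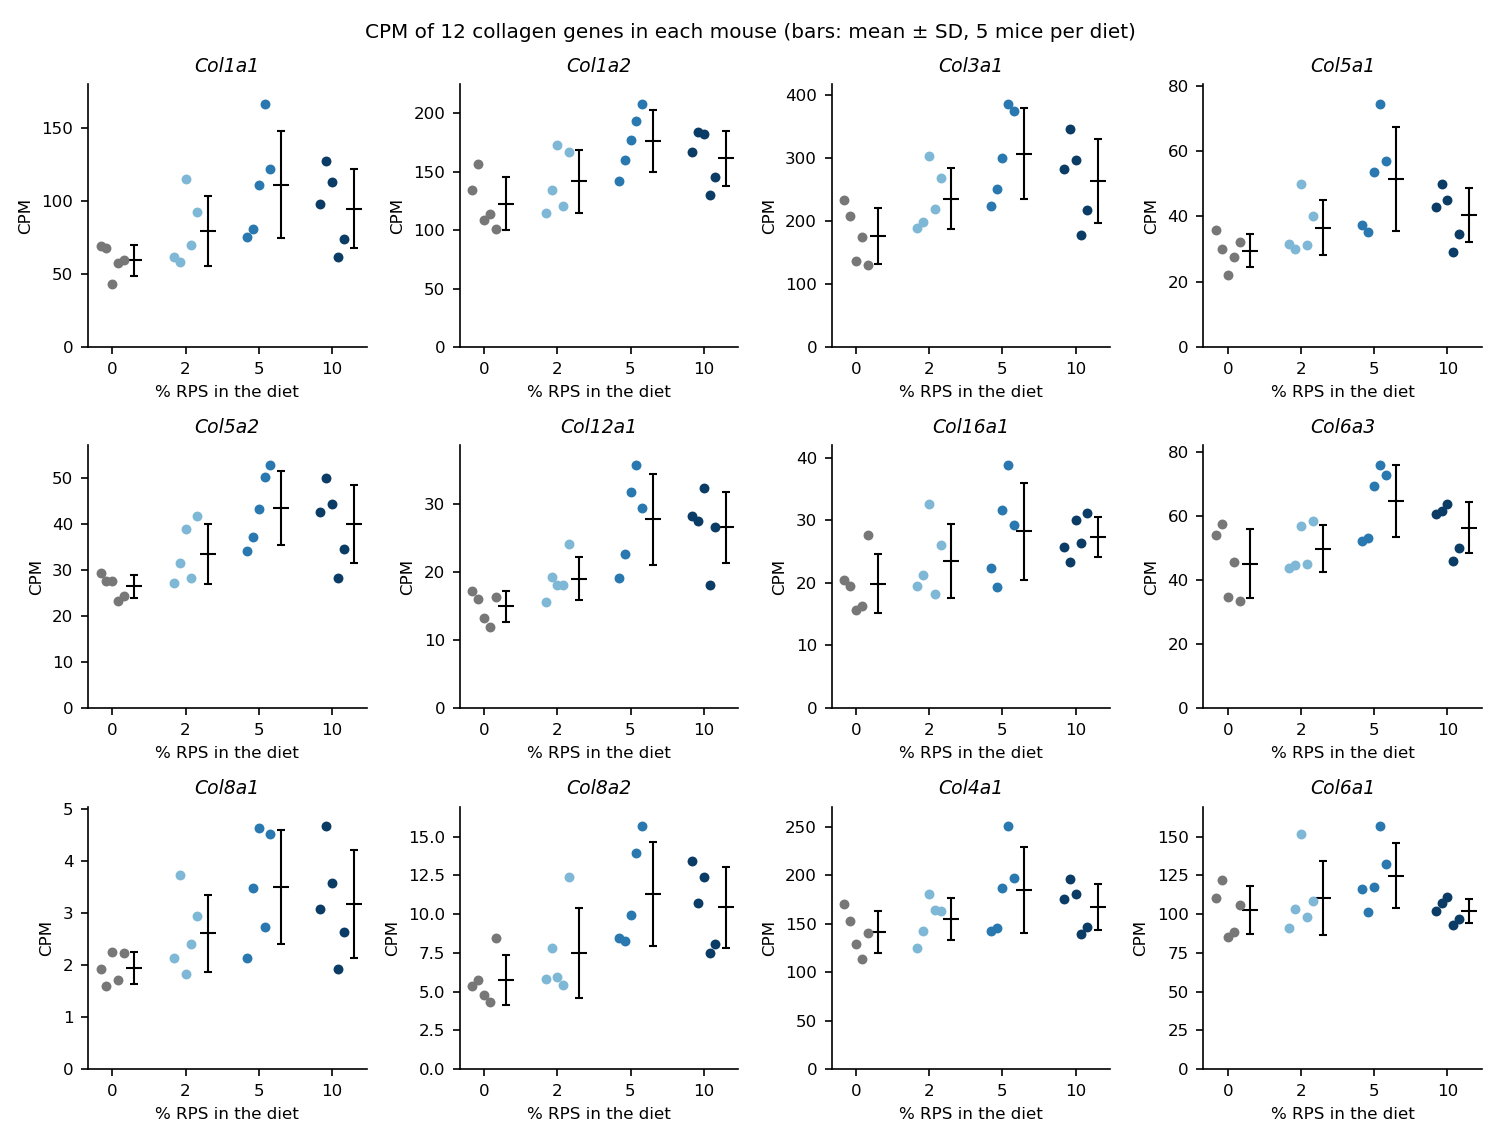
CPM (vertical axis, from 0) of 12 collagen genes in each mouse against the percentage of RPS; points are mice and bars give the mean ± SD of 5 mice. In Col12a1 the mice fed 10% RPS start at 18.05 CPM, above the highest control at 17.3 CPM, and mouse 4 of that diet is the lowest of its group in Col1a1, Col1a2, Col3a1, Col5a1, and Col5a2.

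The promoter sequences of the fibrillar genes whose levels were correlated across the mice, and of Col8a2, the gene with the highest estimate, are shown here to set those levels beside the sequence before each start. RefSeq (GRCm38.p6) gave 38 promoters for 35 of the 43 genes (not matched were Col1a1, Col5a2, Col4a3, Col9a3, Col12a1, Col14a1, Col22a1, and Col26a1), and the 150 bases before each start were searched on both strands for CCAAT (bound by the CCAAT-binding factor), GGGCGG (the GC box), and TATAAA (the TATA box), none of which is part of another. Matches are in capitals, in the sense of the gene, so that CCGCCC is GGGCGG on the other strand. The counting used GRCm39, so these coordinates are given for GRCm38.p6 only. The windows were chr6:4505468-4505617, plus strand for Col1a2, chr1:45311388-45311537, plus strand for Col3a1, chr2:27886275-27886424, plus strand for Col5a1, and chr4:126286644-126286793, plus strand for Col8a2.
Col1a2: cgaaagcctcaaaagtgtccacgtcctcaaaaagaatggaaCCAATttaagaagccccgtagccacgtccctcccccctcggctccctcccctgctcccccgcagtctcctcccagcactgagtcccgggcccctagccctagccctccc
Col3a1: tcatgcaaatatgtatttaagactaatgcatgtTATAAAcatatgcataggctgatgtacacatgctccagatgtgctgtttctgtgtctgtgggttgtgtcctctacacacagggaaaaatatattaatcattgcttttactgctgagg
Col5a1: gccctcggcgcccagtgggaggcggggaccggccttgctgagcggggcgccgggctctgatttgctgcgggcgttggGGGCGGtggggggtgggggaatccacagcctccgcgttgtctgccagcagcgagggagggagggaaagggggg
Col8a2: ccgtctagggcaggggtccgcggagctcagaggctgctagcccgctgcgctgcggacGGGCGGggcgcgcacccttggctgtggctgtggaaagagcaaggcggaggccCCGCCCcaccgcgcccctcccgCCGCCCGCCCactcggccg
Col1a2 has CCAAT starting 109 bases before its start, Col3a1 has TATAAA 117 bases before, Col5a1 has GGGCGG 73 bases before, and Col8a2 has 4 GC boxes, of which a pair overlaps in the run CCGCCCGCCC. Over the 38 collagen promoters 8 held CCAAT (21.1%, against 24.5% of all 32851 promoters of the table), 19 held GGGCGG (50.0%, against 28.6%), and 4 held TATAAA (10.5%, against 7.57%). A match is a description of the letters only.

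The other fibrillar genes did not pass any test with 10% RPS. Col27a1 was at 12.1 ± 3.29 CPM with 0% RPS (SD, n = 5) and 15.1 ± 1.70 CPM with 10% RPS, a log2 fold change of 0.32 ± 0.24, and with 5% RPS its unadjusted p was 0.0354 (0.53 ± 0.24, adjusted p = 0.325). Col5a3, the third type V chain, differed by -0.24 ± 0.29 on the log2 scale (adjusted p = 0.679), with a lower estimate than those of Col5a1 and Col5a2. Col11a1, Col11a2, and Col24a1, chains known mainly from cartilage and bone, had mean levels of 0.933, 3.81, and 1.48 CPM over the 20 mice and log2 fold changes of -0.19 ± 0.31, 0.15 ± 0.27, and -0.17 ± 0.24. The lowest count of Col11a1 in a mouse was 9.

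In the FACIT class 2 of the 8 tested genes had an unadjusted p under 0.05 with 10% RPS, both with higher levels, and 1 passed the threshold, against the same 9.74% and 0.547% of all genes tested. The class median was 0.45 on the log2 scale, and 7 of the 8 estimates were above 0. Col12a1, which coats type I fibrils in tissue under mechanical load, rose with 5% and with 10% RPS. The gene (ENSMUSG00000032332) lies on chromosome 9, 79506268 to 79626135 of GRCm39, minus strand. Its level was 17.3, 16.01, 13.2, 11.9 and 16.3 CPM with 0% RPS, 15.6, 19.3, 18.1, 18.1 and 24.1 with 2%, 19.1, 22.7, 31.7, 35.7 and 29.4 with 5%, and 28.3, 27.5, 32.3, 18.05 and 26.7 CPM with 10% RPS. Every mouse fed 5% or 10% RPS was above every control mouse, whereas the 2% RPS mice overlapped with the controls. The log2 fold change was 0.83 ± 0.17 with 10% RPS (95% interval 0.48 to 1.18; adjusted p = 0.0251), or 1.78-fold, and 0.89 ± 0.17 with 5% RPS (0.53 to 1.24; adjusted p = 0.0425), or 1.85-fold. With 2% RPS it was 0.35 ± 0.17 (adjusted p = 0.849). The 10% RPS call was held in 15 of the 20 fits that left out 1 mouse, and without mouse 3 or 4 of the 0% diet or mouse 1, 2, or 3 of the 10% diet the adjusted p was between 0.0501 and 0.0819. The 5% RPS call was held in 8 of the 20, and without any 1 of the 0% RPS mice, mouse 1 or 2 of the 2% diet, mouse 2, 3, 4, or 5 of the 5% diet, or mouse 5 of the 10% diet the adjusted p was between 0.0501 and 0.136. Neither call of Col12a1 was made by edgeR's glmTreat, which placed 0 of all genes tested past the threshold with 10% or 5% RPS.

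Col16a1, a FACIT found beside type I fibrils and at basement membranes, was at 20.4, 19.5, 15.6, 16.3 and 27.6 CPM with 0% RPS and 25.8, 23.3, 29.96, 26.4 and 31.1 CPM with 10% RPS. Mouse 5 of the controls lay inside the upper group, and 2 of the 5 mice fed 10% RPS were above all controls. The log2 fold change was 0.46 ± 0.19 with 10% RPS (unadjusted p = 0.0257, adjusted p = 0.194) and 0.50 ± 0.19 with 5%. Col14a1, the type XIV chain that binds fibrils in soft tissue, had a wide spread, 2.23 to 11.5 CPM in the controls and 7.44 to 16.2 CPM with 10% RPS, and a log2 fold change of 0.65 ± 0.33 (adjusted p = 0.289). Col22a1, a chain of tissue junctions, was estimated at 0.62 ± 0.46 from a median of 18.5 counts per mouse. Col19a1 and Col20a1 had log2 fold changes of 0.44 ± 0.27 and 0.17 ± 0.14, and the type IX chains Col9a2 and Col9a3, known from cartilage, -0.051 ± 0.32 and 0.068 ± 0.20. None of these passed the test.

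The short-chain network collagens were represented by type VIII, found under endothelium and around smooth muscle cells. Both chains were higher at an unadjusted p under 0.05 with 10% and with 5% RPS, where 9.74% and 6.74% of all genes tested were. Col8a2 was at 5.37, 5.77, 4.76, 4.33 and 8.46 CPM with 0% RPS, 8.47, 8.29, 9.96, 13.97 and 15.7 with 5%, and 13.4, 10.7, 12.4, 7.49 and 8.10 CPM with 10% RPS. Mouse 5 of the controls reached the lower part of the 5% and 10% groups, and the other 4 controls were below all of them. The log2 fold change of Col8a2, 0.86 ± 0.25 with 10% RPS, was the highest estimate among the 39 genes (95% interval 0.34 to 1.39; adjusted p = 0.0745), and with 5% RPS it was 0.97 ± 0.25 (adjusted p = 0.0846). The edgeR test did not place it past the threshold in either comparison, and DESeq2's Wald test did in both, with adjusted p of 0.0222 and 0.0150. Over all alternatives the adjusted p for 10% RPS ranged from 0.0222 to 0.204, and without mouse 4 of the 10% diet it was 0.0465, past the threshold. Without mouse 5 of the 2% diet the 5% RPS difference passed as well (adjusted p = 0.0456). Col8a1 was at 1.92, 1.59, 2.25, 1.71 and 2.24 CPM with 0% RPS and 3.07, 4.67, 3.57, 1.93 and 2.63 CPM with 10% RPS. Only mouse 4 of the 10% diet was within the control range, and the log2 fold change was 0.71 ± 0.25 (unadjusted p = 0.00977, adjusted p = 0.129).

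In edgeR, as in DESeq2's Wald test, 0 of the 6 type IV genes had an unadjusted p under 0.05 with 10% RPS (9.74% of all genes tested were higher and 9.75% lower at such a p), and the class median was -0.074. A count of 0 among 6 genes is near those shares. Col4a1 and Col4a2, the chains of the common basement membrane network, were the most abundant of the class. Col4a1 was at 170.3, 153, 129, 113 and 141 CPM with 0% RPS and 176, 196, 180.4, 139.6 and 147 CPM with 10% RPS, a log2 fold change of 0.25 ± 0.15 (95% interval -0.059 to 0.55). Col4a2 was at 121, 106, 91.2, 80.7 and 137 CPM with 0% RPS and 134, 149.7, 152, 109 and 114 CPM with 10% RPS, with 0.30 ± 0.20 (-0.11 to 0.70). The groups overlapped in both genes, and both intervals include 0. With 5% RPS the unadjusted p was 0.0165 for Col4a1 (0.39 ± 0.15) and 0.0163 for Col4a2 (0.51 ± 0.20), and the adjusted p was 0.236 and 0.235. Mouse 4 of the 5% diet had the highest level of both, 251 and 234 CPM.

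The remaining type IV chains belong to the networks of specialised basement membranes, and they were lower. Col4a5 and Col4a6, the chains found around smooth muscle, had mean levels of 13.04 and 5.94 CPM and log2 fold changes of -0.028 ± 0.18 and -0.12 ± 0.17 with 10% RPS. Col4a3 and Col4a4, known from the kidney filter, had 1.35 and 0.838 CPM and log2 fold changes of -0.26 ± 0.21 and -0.27 ± 0.33. With 5% RPS Col4a3 was estimated at -0.44 ± 0.22, the lowest of the 39 genes in that comparison, with an unadjusted p of 0.0574. The type IV genes lie in head-to-head pairs in GENCODE on GRCm39. Col4a1 and Col4a2 on chromosome 8 overlap by 356 bases, Col4a3 and Col4a4 on chromosome 1 overlap by 159 bases, and Col4a5 and Col4a6 on chromosome X are 1281 bases apart. Whether strand was used in the counting is not given in the sources used here, so reads in the overlaps may have been assigned to either gene of the first 2 pairs.

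Type VI collagen, a heterotrimer of the Col6a1, Col6a2, and Col6a3 chains, was split in its estimates. Col6a1 was at 111, 122, 85.1, 88.5 and 106 CPM with 0% RPS and 102, 107, 111, 92.7 and 96.9 CPM with 10% RPS, and Col6a2 at 83.3, 91.3, 57.0, 71.4 and 88.5 CPM with 0% RPS and 85.0, 89.5, 83.7, 68.5 and 69.5 CPM with 10% RPS. The 10% RPS mice lay within the range of the controls in both genes. The log2 fold changes with 10% RPS were -0.0059 ± 0.13 for Col6a1 (95% interval -0.28 to 0.27) and 0.018 ± 0.20 for Col6a2 (-0.40 to 0.44), and both changed sign in some fits that left out 1 mouse. Col6a3, the long chain, was at 53.9, 57.6, 34.8, 45.7 and 33.6 CPM with 0% RPS and 60.8, 61.5, 63.6, 45.9 and 50.0 CPM with 10% RPS, where 3 of 5 mice were above all controls, with a log2 fold change of 0.32 ± 0.15 (unadjusted p = 0.0495, adjusted p = 0.255). With 5% RPS the estimates were 0.29 ± 0.13 for Col6a1, 0.42 ± 0.20 for Col6a2, and 0.52 ± 0.15 for Col6a3, with unadjusted p of 0.0443, 0.0487, and 0.00309 and adjusted p from 0.122 to 0.372. Of the additional chains, Col6a5 had 0.47 ± 0.30 with 10% RPS and 0.82 ± 0.30 with 5% (adjusted p = 0.205), and Col6a4 had -0.27 ± 0.18 and -0.27 ± 0.18.

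The multiplexins, type XV and type XVIII of basement membrane zones, did not pass any test. Col15a1 was at 32.6, 24.6, 17.2, 19.5 and 16.6 CPM with 0% RPS and 20.5, 20.7, 24.6, 22.0 and 18.3 CPM with 10% RPS, a log2 fold change of -0.061 ± 0.19, and Col18a1, the source of endostatin, at 22.1, 21.2, 10.7, 13.9 and 13.2 CPM with 0% RPS and 16.1, 13.7, 14.47, 16.6 and 14.2 CPM with 10% RPS, with -0.11 ± 0.23. In both genes the 10% RPS mice lay inside the control range. Among the transmembrane collagens Col23a1 was at 19.4, 20.2, 34.3, 19.5 and 36.9 CPM with 0% RPS and 13.6, 12.9, 25.0, 24.2 and 26.3 CPM with 10% RPS, and its estimate of -0.36 ± 0.24 was the lowest of the 39 genes with 10% RPS (95% interval -0.86 to 0.15). Col25a1 had 0.43 ± 0.22 (unadjusted p = 0.0604), Col13a1 0.0076 ± 0.27, and Col17a1, a hemidesmosome component, 0.075 ± 0.40 from a median of 18 counts. Col13a1 was at 4.49, 3.11, 3.45, 3.42 and 5.02 CPM with 0% RPS and 3.76, 3.48, 4.77, 3.63 and 3.98 CPM with 10% RPS. Col7a1, the anchoring fibril chain, was at 6.74, 5.57, 5.25, 5.71 and 6.51 CPM with 0% RPS and 6.94, 4.90, 5.56, 6.97 and 6.15 CPM with 10% RPS (0.032 ± 0.17), and Col28a1 at 2.73, 1.11, 3.08, 2.28 and 3.82 CPM with 0% RPS and 3.14, 3.43, 3.19, 3.20 and 2.18 CPM with 10% RPS (0.21 ± 0.27).

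The response by dose was compared directly. With 10% against 5% RPS 1 of the 39 genes had an unadjusted p under 0.05 with a lower level, Col6a1 (-0.29 ± 0.13, adjusted p = 1; 2.56% of members, against 1.15% of all genes tested). Col12a1 differed by -0.058 ± 0.17 between these doses (95% interval -0.41 to 0.29), and Col8a2 by -0.11 ± 0.25. The estimate against 0% RPS was larger with 5% than with 10% RPS in 31 of the 39 genes and in all 10 genes with an unadjusted p under 0.05 with 10% RPS. Of all 15348 genes tested 7629 had an estimate below 0 for 10% against 5% RPS. A difference between those doses was thus seen as a direction of the estimates and not past a test for these 10 genes. Many collagen genes were correlated across the mice, so that their directions are not independent of each other. Against 2% RPS 1 gene, Col12a1, had an unadjusted p under 0.05 with 10% RPS (0.48 ± 0.17, 2.56% of members, against 2.38% of all genes tested), with an adjusted p of 0.998. In the linear trend 1 gene, Col12a1, rose past an adjusted p of 0.05, where 0.378% of all genes tested did. Its slope was 0.082 ± 0.019 log2 units per percent of RPS (adjusted p = 0.0453), or 1.06-fold per percent. This call was made in 7 of the 20 fits that left out 1 mouse, and the adjusted p was between 0.0546 and 0.14 without mouse 1, 3, 4, or 5 of the 0% diet, mouse 1, 2, or 4 of the 2% diet, mouse 1 or 2 of the 5% diet, or mouse 1, 2, 3, or 5 of the 10% diet. Without the filter on low counts the trend call of Col12a1 was lost as well (adjusted p = 0.0526). The slopes of Col5a2 and Col8a2 were 0.056 ± 0.017 and 0.085 ± 0.027 (adjusted p = 0.098 and 0.0988).

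A ratio of 2 chains within a mouse does not depend on the scaling of its library. The log2 ratio of Col1a1 to Col1a2 counts was -1.05 ± 0.23 with 0% RPS (SD, n = 5) and -0.81 ± 0.22 with 10% RPS. The difference of 0.24 had an exact permutation p of 0.151 (two-sided, 252 assignments, smallest possible p 0.00794), or 0.603 adjusted over the 4 ratios tested. The ratios Col4a1 to Col4a2, Col6a1 to Col6a2, and Col5a1 to Col5a2 differed by -0.060, -0.025, and -0.13, with exact permutation p of 0.571, 0.794, and 0.333. None of these differences passed the test. Control mouse 5 had a Col4a1 to Col4a2 log2 ratio of 0.036 where the other 4 controls were between 0.49 and 0.54, and without it the difference was -0.15 (unadjusted exact permutation p = 0.0159). Without control mouse 3 the Col5a1 to Col5a2 difference was -0.25, with the same unadjusted exact permutation p, the smallest that 5 against 4 mice can give.

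The tested members were also compared with Col1a1 across the 20 mice on the log2 CPM scale, by Pearson's r and Spearman's rho with 100000 permutations (38 relations, adjusted over them). The r was above 0 in 30 of the 38 genes and had an adjusted p of at most 0.05 in 18, all of them positive. At an unadjusted permutation p under 0.05 it was above 0 in 19 of the 38 (50.0%), and 12.7% of the 15347 other genes tested had such an r with Col1a1. Col5a1 was nearest to Col1a1 (r = 0.97, rho = 0.94), before Col3a1 (r = 0.95, rho = 0.97), Col5a2 (r = 0.91, rho = 0.92), Col4a1 (r = 0.91, rho = 0.91), and Col1a2 (r = 0.90, rho = 0.93), each with a permutation p of 1e-05, the smallest that can be reached. With the diet means removed the adjusted p of r was at most 0.05 for 17 genes, 16 of them positive, and for 15 of the 17 that of rho was as well. These values were permuted over all 20 mice and not within diets, so that the p-values are approximate and may be too small. The unadjusted p was under 0.05 with r above 0 again in 19 of the 38, against 11.4% of all other genes tested. Within diets r was 0.97 for Col5a1, 0.91 for Col3a1, 0.88 for Col4a1, and 0.73 for Col12a1. The type VI chains Col6a1 and Col6a2, whose diet means did not differ with 10% RPS past the test, had 0.83 and 0.87 within diets. The exception in sign was Col25a1, with r = -0.75 and rho = -0.72 within diets (adjusted permutation p of r = 0.000646) and r = -0.25 over all mice. Col8a1 had r = 0.54 over all mice and 0.20 within diets (adjusted permutation p = 0.564).

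Leaving out the 2 mice farthest from the median of Col1a1 (mouse 3 with 0% and mouse 4 with 5% RPS) gave r of 0.96 for Col5a1, 0.93 for Col3a1, 0.87 for Col4a1, and 0.62 for Col6a1. For 10 pairs of chains or neighbouring genes, chosen after values were seen, r was 0.94 for Col4a1 and Col4a2, 0.93 for Col6a1 and Col6a2, 0.92 for Col3a1 and Col5a2 (tail to tail on chromosome 1, 16713 bases apart), 0.72 for Col8a1 and Col8a2, and 0.58 for Col4a5 and Col4a6. The corresponding rho were 0.89, 0.86, 0.93, 0.70, and 0.50. The overlapping pair Col4a3 and Col4a4 had r = -0.22 and rho = -0.11 (permutation p = 0.346 and 0.635), at counts as low as 9 in a mouse. Mouse 3 of the 0% diet was the lowest of its diet in 10 of the 39 tested genes (Col1a1, Col5a1, Col6a1, and Col6a2 among them) and the highest in 4, and mouse 3 of the 2% diet the highest of its own in 21 (Col1a1, Col3a1, and Col5a1 among them) and the lowest in 5.

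**Figure D3:**
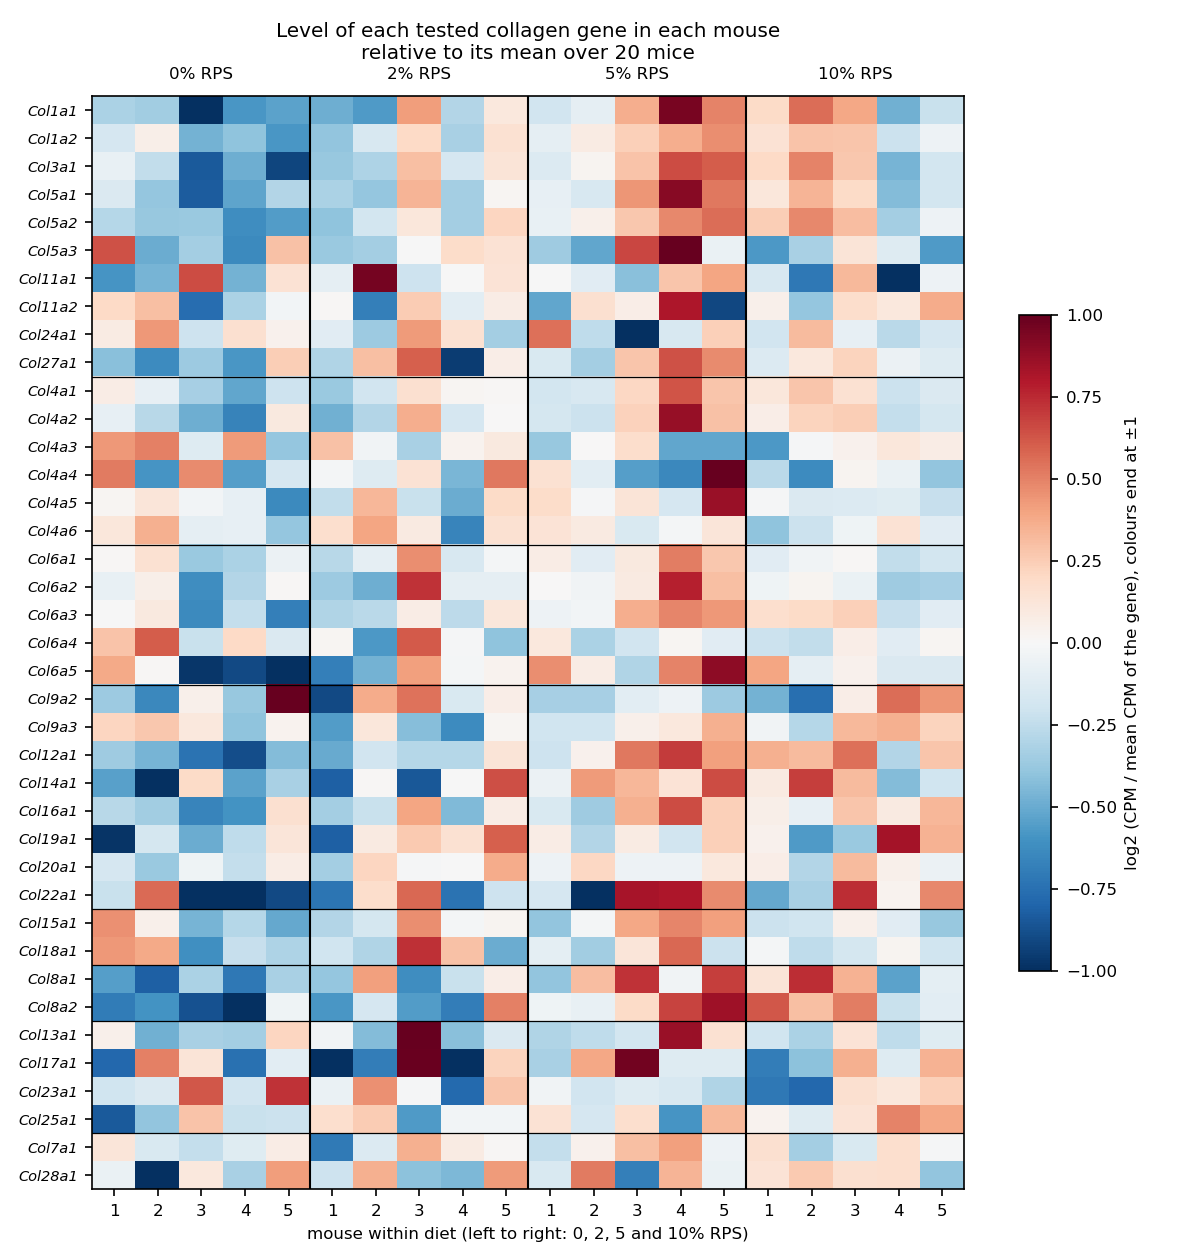
Level of the 39 tested collagen genes (rows, by class, with lines between classes) in each of the 20 mice (columns, by diet), as log2 of CPM over the gene's mean of 20 mice, from blue (lower) to red (higher). The first 5 rows (Col1a1 to Col5a2) are mostly blue in the 0% RPS mice and red in mice 3 to 5 of the 5% diet and mice 1 to 3 of the 10% diet while Col12a1 is blue in all 5 mice of the 0% diet. Mouse 4 of the 5% diet is red in most rows of the fibrillar and type VI classes.

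**Figure D4:**
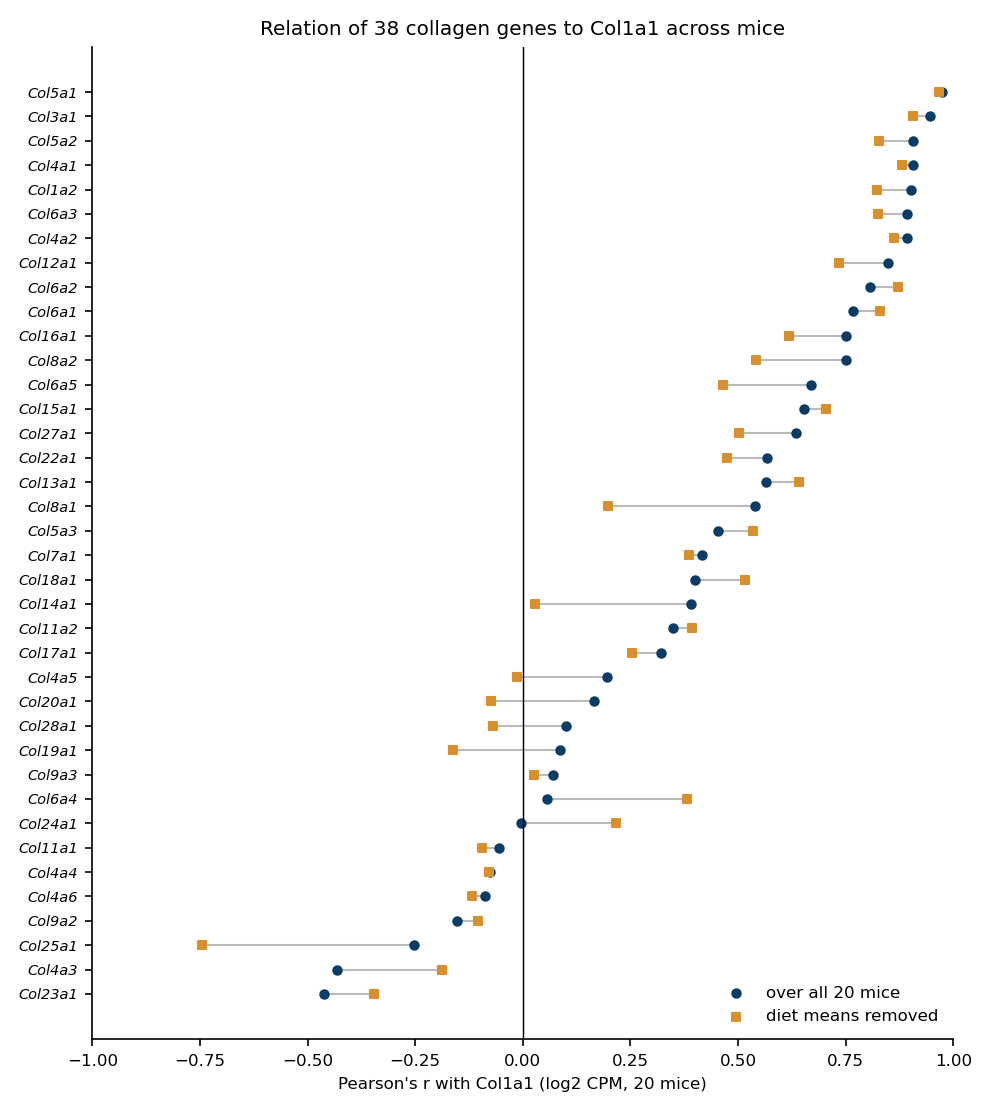
Pearson's r of 38 collagen genes (rows) with Col1a1 over 20 mice (circles) and after the diet means were removed (squares). Col5a1 and Col3a1 have the highest r on both scales, and Col14a1 moves from 0.39 over all mice to 0.028 within diets.

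The genes that act on collagen were taken from fixed lists. Of 22 genes for folding and modification in the endoplasmic reticulum (prolyl and lysyl hydroxylases, the chaperone Serpinh1, and others) all were tested, and 0 had an unadjusted p under 0.05 with 10% RPS in edgeR, with a list median of -0.033 (DESeq2's Wald test also gave 0 of them such a p). In edgeR 9.74% of all genes tested were higher and 9.75% lower at such a p. P4hb, the most abundant of them and a subunit of prolyl hydroxylase, was at 748.1 ± 40.8 CPM with 0% RPS and 704 ± 21.9 CPM with 10% RPS (-0.087 ± 0.078). The lowest p belonged to the isomerase Ppib (-0.18 ± 0.11, unadjusted p = 0.119) and the transcription factor Creb3l1 (-0.41 ± 0.26, unadjusted p = 0.137). Of 12 tested genes for propeptide processing and cross-linking 3 had an unadjusted p under 0.05, all higher (9.74% of all genes tested were) and all lysyl oxidase-like cross-linking enzymes, with a list median of 0.29. These were Loxl2 (11.7 ± 2.65 against 16.9 ± 3.95 CPM, 0.53 ± 0.19, adjusted p = 0.147), Loxl4 (0.63 ± 0.24, adjusted p = 0.159), and Loxl1 (0.66 ± 0.28, adjusted p = 0.2), while the procollagen C-proteinase Bmp1 was at -0.028 ± 0.14.

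Of 17 fibril-organizing proteins 16 had an estimate above 0 with 10% RPS (7808 of all 15348 genes tested had) and 6 an unadjusted p under 0.05 (9.74% of all genes tested, at a higher level), with a median of 0.27. In edgeR 0 of the 17 were past the threshold, and in DESeq2's Wald test 1 was, Fn1 (adjusted p = 0.0286). Fn1 (fibronectin), the matrix glycoprotein on which collagen fibrils assemble, was at 166, 99.4, 147, 127 and 238 CPM with 0% RPS and 282, 549, 239, 170.4 and 205 CPM with 10% RPS (0.90 ± 0.29, adjusted p = 0.104). Tnc (tenascin C) was at 72.3, 63.7, 63.2, 57.5 and 83.7 CPM with 0% RPS and 92.3, 128, 99.1, 63.7 and 104 CPM with 10% RPS (0.51 ± 0.17, adjusted p = 0.11). The groups overlapped in both. The others with an unadjusted p under 0.05 were Ogn, Postn, Tgfbi, and Fmod, with log2 fold changes of 0.68 ± 0.27, 0.33 ± 0.13, 0.24 ± 0.11, and 1.66 ± 0.76. Among 9 tested collagen receptors 3 were higher at an unadjusted p under 0.05 (again against 9.74%), the integrin Itga1 (0.35 ± 0.13), the kinase Ddr2 (0.36 ± 0.14), and the leukocyte receptor Lair1 (0.63 ± 0.25), with adjusted p from 0.142 to 0.169, and the shared integrin chain Itgb1 was at 0.093 ± 0.068. Among 7 tested genes for degradation and uptake the protease Fap was higher (0.42 ± 0.17) and the gelatinase Mmp2 lower (-0.36 ± 0.15) at an unadjusted p under 0.05 (against 9.74% higher and 9.75% lower), with adjusted p of 0.169 and 0.194, and Mmp14, the most abundant, was at -0.035 ± 0.11.

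TGF-beta is the classical inducer of fibrillar collagen, and 14 of its ligands, receptors, binding proteins, and target genes were tested, with a median of 0.15. At an unadjusted p under 0.05 with 10% RPS 1 of the 14 was higher and 1 lower, where 9.74% and 9.75% of all genes tested were. Smad7, an inhibitor in this pathway that TGF-beta itself induces, was at 94.98, 76.7, 93.9, 94.2 and 109 CPM with 0% RPS and 66.5, 63.9, 61.9, 75.9 and 72.1 CPM with 10% RPS. All 5 mice fed 10% RPS were below all controls, a pattern that 491 of all 15348 genes tested had. Its log2 fold change of -0.46 ± 0.11 had an adjusted p of 0.0326 but stayed short of a 1.5-fold change. Ltbp1, a latent TGF-beta binding protein, was at 18.2, 17.2, 17.97, 17.3 and 16.8 and 21.2, 20.6, 23.1, 19.6 and 19.9 CPM without overlap (0.26 ± 0.10, adjusted p = 0.183), and Skil, the most abundant of the list, at -0.096 ± 0.14. Of all genes tested 1.68% were higher without overlap.

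Markers of other cells of the wall were compared between 10% and 0% RPS, and in edgeR those past the threshold were 2 of the smooth muscle list. Of 9 smooth muscle markers all had an estimate above 0 with 10% RPS, and the median of their log2 fold changes was 0.69. Past the threshold and higher were 2 of them, Actg2 and Synpo2 (0.547% of all genes tested were past it in that direction), and 6 were higher at an unadjusted p below 0.05 (9.74% of all genes tested were). DESeq2's Wald test also placed Cnn1 past it. With 5% RPS all 9 were higher at an unadjusted p below 0.05 (6.74% of all genes tested were), with a median of 0.78, all 5 mice were above all controls in 2 of them (1.53% of all genes tested), and 1, Actg2, was past the threshold (1.53 ± 0.30, adjusted p = 0.0425), where 0.0977% of all genes tested were in that direction. This call was lost in 12 of the 20 fits without 1 mouse (adjusted p from 0.0501 to 0.136). Their summed level was 2727 to 6311 CPM in the mice fed 0% RPS, 3664 to 6389.8 with 2%, 4653 to 10589 with 5%, and 4508 to 7506 CPM with 10% RPS. Actg2, the actin of visceral smooth muscle, rose from 395, 245, 262, 298 and 337 CPM with 0% RPS to 899, 886, 1004, 380.3 and 555 CPM with 10% RPS (1.28 ± 0.30, adjusted p = 0.0358), where mouse 4 of the 10% diet was within the control range. Synpo2 rose by 0.88 ± 0.22 on the log2 scale (adjusted p = 0.0411). The call of Actg2 was lost without mouse 3, 4, or 5 of the 0% diet or mouse 1, 2, 3, or 5 of the 10% diet (adjusted p from 0.0509 to 0.117), and that of Synpo2 without any 1 of the 0% RPS mice, mouse 1 of the 2% diet, mouse 3 of the 5% diet, or mouse 1, 2, 3, or 5 of the 10% diet (0.0517 to 0.132). Without the filter on low counts the call of Synpo2 was lost as well (adjusted p = 0.0515). Myh11, the most abundant of them, was at 0.48 ± 0.28 (adjusted p = 0.351). The control mouse with the highest sum of smooth muscle markers was mouse 5, at 6311 CPM, and it was the highest of its diet in 10 and the lowest in 8 of the 39 tested collagen genes (Col1a2 and Col3a1 among the lowest, Col4a2, Col8a2, and Col16a1 among the highest). The mouse with the highest sum of all was mouse 4 of the 5% diet, the highest of its diet in 18 and the lowest in 3 of the 39 genes. In the 10% diet the lowest sum was that of mouse 4, which was the lowest of its diet in 17 of the 39 genes, Col1a1, Col1a2, Col3a1, Col5a1, and Col5a2 among them, and the highest in 8. The part of smooth muscle in the collagen differences was not tested.

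Fibroblast markers were mixed. Their summed level was 166 to 173 CPM with 0% RPS, 144 to 181 CPM with 2%, 173 to 208 CPM with 5%, and 170.0 to 188 CPM with 10% RPS. At an unadjusted p under 0.05, where 9.74% of all genes tested were higher and 9.75% lower, Pi16 (1.27 ± 0.42), Mfap5 (1.07 ± 0.41), and Clec3b (0.43 ± 0.20), genes of adventitial fibroblasts, were higher with 10% RPS, and the receptors Pdgfra (-0.31 ± 0.13) and Pdgfrb (-0.29 ± 0.11) were lower. With 5% RPS 4 of the 10 were higher at such a p, against 6.74% of all genes tested. Dpt, the most abundant of the list, was at 0.34 ± 0.17. Adjusted p of these 6 genes ran from 0.109 to 0.269 in edgeR, and DESeq2's Wald test placed Pi16 past the threshold (adjusted p = 0.0395). Of 8 vascular endothelial markers 4 were lower at an unadjusted p under 0.05 (Emcn -0.45 ± 0.13, Kdr -0.33 ± 0.11, Esam -0.37 ± 0.15, and Plvap -0.34 ± 0.16), against 9.75% of all genes tested. With 5% RPS 0 of the 8 were lower at such a p, where 1004 of all 15348 genes tested were. The sum of the 8 markers was 143 to 181 CPM with 0% and 124 to 171 CPM with 10% RPS, while Pecam1 was at 0.21 ± 0.12. Of the 4 pericyte markers Rgs5, also made by smooth muscle, was at 0.48 ± 0.20 and Notch3 at -0.61 ± 0.20, with adjusted p of 0.195 and 0.0979. DESeq2's Wald test placed Notch3 past the threshold (adjusted p = 0.0437).

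All 10 epithelial markers had an estimate below 0 with 10% RPS, where 7540 of all 15348 genes tested did, and 5 had an unadjusted p under 0.05 (Car1, Cdh1, Krt19, Lgals4, and Cldn7, from -0.43 to -0.21), against 9.75% of all genes tested with a lower level. With 5% RPS all 10 were below 0 as well, with a median of -0.17, and 4 had an unadjusted p under 0.05 (1004 of all 15348 genes tested were lower at such a p). Their sum ran from 39745 to 48559.5 CPM with 0% RPS and from 28293 to 44304 CPM with 10% RPS. The leukocyte sum was 29.6 to 207 and 47.1 to 255 CPM, and its most abundant gene, Ptprc, was at 1.26 ± 0.51 (unadjusted p = 0.0237, adjusted p = 0.189). Of the 5 tested leukocyte markers 4 had an estimate above 0, the median was 1.26, the highest median of these lists, and 1, Ptprc, was higher at an unadjusted p under 0.05 in edgeR (9.74% of all genes tested were), while DESeq2's Wald test gave 2 such a p. The macrophage receptor Csf1r had the next lowest p (0.54 ± 0.27, unadjusted p = 0.0546), and Cd3e of T cells was at -0.12 ± 0.41. Adipocyte markers summed to 63.3 to 127 and 21.5 to 121 CPM, with Cidec at -0.97 ± 0.29 (adjusted p = 0.0793 in edgeR, and 0.0142 and past the threshold in DESeq2's Wald test) and Plin1 at -0.95 ± 1.33, and mesothelial markers to 0.604 to 10.3 and 2.68 to 17.5 CPM, with Msln at 2.08 ± 1.002 and Upk3b at 0.20 ± 1.16. With 10% RPS the adipocyte sum of mouse 4 was 121 CPM, and those of the other mice (21.5, 42.6, 25.9 and 27.2 CPM) were below all controls. All 4 adipocyte markers had an estimate below 0, with a median of -0.84, and 1 had an unadjusted p under 0.05 (9.75% of all genes tested were lower at such a p). Lymphatic and glial lists had 0 of 4 genes each at an unadjusted p under 0.05 in edgeR and in DESeq2's Wald test, with medians of 0.20 and -0.23. In edgeR 9.74% of all genes tested were higher and 9.75% lower at such a p, and a count of 0 among 4 genes is near those shares. The lowest p in them belonged to Prox1 (0.28 ± 0.22) and Lyve1 (0.18 ± 0.16), and to S100b (-0.38 ± 0.37) and Sox10 (-0.30 ± 0.35). The most abundant lymphatic marker was Mmrn1 (0.23 ± 0.21). No marker of these lists was at 0 in all mice. The part of these lists in the collagen values was not tested either.

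**Figure D5:**
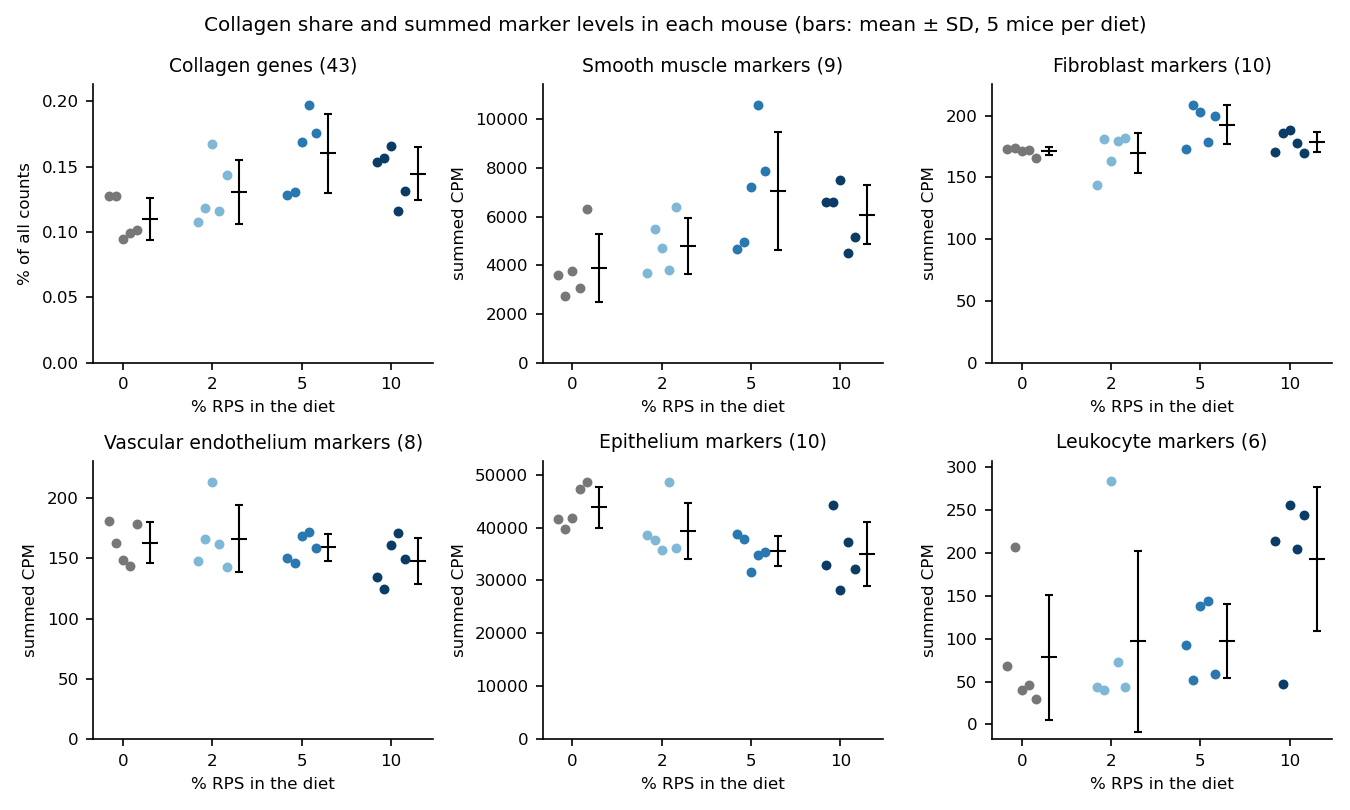
Share of all counts in the 43 collagen genes (%, first panel) and summed CPM of 5 marker lists in each mouse (vertical axes, from 0 except for leukocytes, where the lower end of a bar is below it) against the percentage of RPS; points are mice and bars the mean ± SD of 5 mice. The collagen share and the smooth muscle sum have their highest means with 5% RPS (0.160 ± 0.0299% and 7058 ± 2421 CPM), and the epithelial sum is lower with 10% (34978 ± 6110.5 CPM) than with 0% RPS (43809 ± 3883 CPM).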

How the data were processed

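Cecum RNASeq libraries of 20 mice were analysed, and proximal and distal colon samples were not analysed here. The authors extracted RNA from tissue sections, made stranded poly-A mRNA libraries, sequenced single-end reads, removed low-quality nucleotides and ambiguous reads in CLC Genomics Workbench, mapped to GRCm39, and deposited raw counts per gene in 1 table. The annotation release, the strand setting, and the handling of reads that match several genes are not given in the sources used here. Chains of similar sequence, and overlapping genes such as Col4a1 with Col4a2, are therefore less certain.

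Gene IDs were matched to GENCODE mouse release 39 (19827 matched, 60 did not). Genes were kept by filterByExpr (minimum count 10, minimum total 15), which left 15348. Counts were scaled by TMM (factors from 0.916 to 1.07) and tested by edgeR's robust quasi-likelihood test in 1 model of 4 diets, with Benjamini-Hochberg adjustment over all genes tested. The linear trend used the percentage of RPS and an adjusted p of 0.05 with no fold threshold. CPM levels carry no prior count, and relations used log2 CPM with a prior count of 2. A count of 3 corresponded to at most 0.19 CPM. Chain ratios were compared by exact permutation. The code was tested on simulated data. Tools were R 4.3.3 with edgeR 4.0.16 and DESeq2 1.42.0, and Python 3.11.15 with scipy 1.17.1 for tests, pandas 2.3.3 and numpy 2.4.6 for tables, and matplotlib 3.10.9 for plots.

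No 2 mice of a diet agreed within sampling noise (40 pairs, chi-square per degree of freedom from 14.2 to 143.0), so each was counted as 1 replicate. Replicates are separate mice, and p-values measure the spread between them. The collagen genes, the gene lists, and the tests were chosen with earlier results of these data known, so counts over them are descriptions. Genes were named by a rule. Any tested collagen gene could be named, with values per mouse for those past a threshold, for those with an unadjusted p under 0.05 with 10% RPS, and for the 2 most abundant of each class. From each list the genes past the threshold, the 2 with the lowest p with 10% RPS, and the most abundant were to be named, and further genes were named where a count was given. A further marker list and some members of other lists are not reported here. Alternatives were other size factors, filters, and call rules, DESeq2's Wald test, non-robust and 2-diet fits, the rank of the dose, and leaving out each mouse.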

Additional observations from a re-analysis of the deposited data

Results flagged for a closer look

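The 5 mice of each diet were searched for a highest or lowest mouse whose gap to its nearest neighbour, divided by the range of the group, was above Dixon's critical value of 0.71. This was found in 9 of the 156 groups of 39 genes and 4 diets (5.77%), where chance gives about 1 in 20. Among the high mice, mouse 3 of the 2% diet stood apart in Col6a2 (145 CPM, nearest 82.2, gap ratio 0.761) and in Col13a1 (9.29 CPM, nearest 4.23, gap ratio 0.83). Mouse 2 of the same diet was high in Col11a1 (1.81 CPM, nearest 1.02, gap ratio 0.785). Control mouse 5 was high in Col27a1 (17.8 CPM, nearest 11.7, gap ratio 0.754) and in Col9a2 (4.56 CPM, nearest 2.25, gap ratio 0.729). Mouse 5 of the 5% diet was high in Col4a5 (23.7 CPM, nearest 14.9, gap ratio 0.734), and mouse 2 of the 10% diet was high in Col24a1 (1.83 CPM, nearest 1.39, gap ratio 0.728). At the low end, mouse 1 of the 10% diet stood apart in Col4a3 (0.906 CPM, nearest 1.34, gap ratio 0.787) and mouse 5 of that diet in Col28a1 (2.18 CPM, nearest 3.14, gap ratio 0.765). None of these 9 genes passed the threshold in any comparison.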

How the results depend on the processing

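The number of collagen genes that rose past the threshold with 10% RPS, 2 in the reported fit, was 1 with DESeq2's size factors, 1 without the filter on low counts, 1 in the fit of only the 2 diets compared, 3 by DESeq2's Wald test (Col12a1, Col5a2, and Col8a2), and 0 in edgeR's glmTreat against a fold change of 1.5. It ran from 0 to 3 when 1 mouse was left out. With 5% RPS the number, 1 in the reported fit, was 2 with at least 10 counts in every mouse, 2 in the non-robust fit, 2 in the fit of only 2 diets, 0 by glmTreat, 6 by DESeq2's Wald test, and 0 to 4 without 1 mouse. For the trend it was 0 without the filter on low counts, 3 for the rank of the dose, and 0 to 3 without 1 mouse. In the fits that left out 1 mouse the median log2 fold change of the 39 genes stayed between 0.13 and 0.25 with 10% RPS, between 0.27 and 0.44 with 5%, between 0.079 and 0.23 with 2%, between -0.21 and -0.035 for 10% against 5%, and between -0.0029 and 0.14 for 10% against 2%. The Col6a1 estimate with 10% RPS turned to 0.0019 without the filter on low counts, 0.00025 with at least 10 counts in every mouse, and 0.0011 in the fit of 2 diets. When 1 mouse was left out, the sign also changed in at least 1 fit for Col6a1 (-0.066 to 0.068), Col6a2 (-0.078 to 0.081), Col11a1 (-0.38 to 0.057), Col4a5 (-0.12 to 0.037), Col9a2 (-0.21 to 0.37), Col9a3 (-0.025 to 0.16), Col15a1 (-0.14 to 0.12), Col18a1 (-0.23 to 0.028), Col13a1 (-0.070 to 0.13), Col17a1 (-0.054 to 0.27), and Col7a1 (-0.017 to 0.10). The chain ratio differences ran from 0.17 to 0.32 for Col1a1 to Col1a2, -0.15 to -0.029 for Col4a1 to Col4a2, -0.060 to 0.021 for Col6a1 to Col6a2, and -0.25 to -0.064 for Col5a1 to Col5a2. Over all genes tested, 84 were higher and 76 lower with 10% RPS in the reported fit, against 214 and 154 by DESeq2's Wald test, 41 and 57 in the fit of 2 diets, and 0 and 0 by glmTreat. With 5% RPS the reported 15 and 15 became 145 and 96 by DESeq2's Wald test, 28 and 37 in the fit of 2 diets, and 0 and 0 by glmTreat. The trend's 58 and 112 became 203 and 336 for the rank of the dose, and 37 and 66 without the filter. The cause of these differences was not tested. No paired analysis was possible because the mouse numbers differ between diets and mark no shared litter, cage, or day in the labels. The lowest count of a tested collagen gene in a mouse was 6, in Col17a1 and Col22a1.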
